A study of Mus musculus with 6 samples.

Results

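The genes described here are 9 genes of the myelin sheath and of the mature oligodendrocyte, the glial cell that wraps axons in the brain: Mbp, Mog, Mag, Mobp, Cnp, Mal, Cldn11, Myrf and Opalin. They were taken by symbol from a table of 13582 genes, and all 9 were found in it. The tissue was cortex of the right side, collected from 6 mice of the C57BL/6 strain at an age of 10 weeks. Of these, 3 mice had received vehicle and 3 had received resveratrol, a plant polyphenol, at 10 mg/kg, in both cases as 1 intraperitoneal injection 2 weeks earlier. No allele or transgene is named in the labels, no mouse is described as having had a stroke, and the dose field of the vehicle mice also reads 10 mg/kg, which was read as an injection of vehicle alone. The comparison asks how the cortex differs at a time when resveratrol given beforehand is held to make the brain tolerate ischemia.

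Myelin is a spiral of oligodendrocyte membrane that insulates axons, and its proteins are made in large amounts by the mature cell. Myrf, the myelin regulatory factor, is a membrane-bound protein that cuts itself and releases a part that enters the nucleus, where it works with Sox10 to switch on and maintain myelin genes. The other 8 genes encode the sheath itself, so the level of the regulator can be set beside the levels of the genes downstream of it. In bulk tissue, fewer oligodendrocytes and less RNA per oligodendrocyte cannot be told apart.

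Promoter sequences are shown because the Myrf protein is known to bind the words CTGGCAC and CTGGTAC, so they show which structural genes carry such a word at their start. RefSeq windows of 300 bases (250 before and 50 from the start site on, GRCm38.p6) were matched by symbol for 7 of the 9 genes: Mog, Mag, Mobp, Cnp, Mal, Cldn11 and Opalin. Both strands were searched, and a word within these windows occurred in 4 of the 7 genes, against 8.09% of the 10250 tested genes with a window. In other lists it occurred in 5.88% of 17 further genes of the myelin membrane and its junctions with a window. It occurred in 15.4% of 13 genes for myelin sphingolipids and 21.4% of 14 other genes of mature oligodendrocytes. Outside the lineage the share was 28.6% of 7 choroid plexus, 22.2% of 9 striatal neuron and 20% of 5 upper layer markers. It was 0% of 8 astrocyte, 7 endothelial and 5 neuron markers. The windows of Mag (chr7:30914814-30915113, minus strand, the first of 3 listed starts), Cnp (chr11:100574689-100574988, plus strand), Mog (chr17:37023349-37023648, minus strand) and Opalin (chr19:41077064-41077363, minus strand) are printed 5′ to 3′, with the matching word in capitals.
Mag: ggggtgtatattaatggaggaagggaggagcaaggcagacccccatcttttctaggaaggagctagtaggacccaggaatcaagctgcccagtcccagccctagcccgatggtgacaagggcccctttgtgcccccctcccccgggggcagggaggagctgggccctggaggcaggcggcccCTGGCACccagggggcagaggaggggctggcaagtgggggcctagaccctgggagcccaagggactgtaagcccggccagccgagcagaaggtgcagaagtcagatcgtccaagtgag
Cnp: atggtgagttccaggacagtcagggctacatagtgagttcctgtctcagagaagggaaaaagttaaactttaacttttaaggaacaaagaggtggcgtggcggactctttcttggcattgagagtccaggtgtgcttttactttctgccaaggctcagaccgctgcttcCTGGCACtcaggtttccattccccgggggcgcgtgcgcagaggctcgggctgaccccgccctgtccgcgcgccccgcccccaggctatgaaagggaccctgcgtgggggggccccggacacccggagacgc
Mog: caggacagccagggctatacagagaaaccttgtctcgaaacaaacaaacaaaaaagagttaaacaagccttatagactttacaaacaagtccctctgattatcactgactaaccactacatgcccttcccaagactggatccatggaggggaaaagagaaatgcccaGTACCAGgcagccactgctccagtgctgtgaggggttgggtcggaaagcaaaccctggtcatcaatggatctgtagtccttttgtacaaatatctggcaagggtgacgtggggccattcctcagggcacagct
Opalin: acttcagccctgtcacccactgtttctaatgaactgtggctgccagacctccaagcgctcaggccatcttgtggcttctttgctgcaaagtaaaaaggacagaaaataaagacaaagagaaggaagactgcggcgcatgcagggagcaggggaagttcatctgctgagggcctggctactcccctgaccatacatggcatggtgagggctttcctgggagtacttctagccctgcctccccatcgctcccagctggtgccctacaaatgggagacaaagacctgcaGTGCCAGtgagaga
The word lay at -68 in Mag, -81 in Cnp and -83 in Mog, counted from the start site to the first base of the word, and at 37 within the first bases of the Opalin transcript. In Mog and Opalin it stood on the reverse strand, so that it reads GTACCAG and GTGCCAG in the printed direction. The second Mag window overlaps the first and holds the same word, and the third Mag window holds none. The word ACAAAG, which proteins of the SOX family bind, was searched in the same way on both strands, and no match overlapped a match of the Myrf words in these windows. It occurred in the windows of Mag, Mobp, Cnp and Opalin, with 6 copies in that of Mobp, and in 16.4% of the tested genes with a window. The share was 17.6% of the 17 further membrane and junction genes and 42.9% of the 14 other mature oligodendrocyte genes. Outside the lineage it was 60% of 5 neuron markers, 42.9% of 7 endothelial markers and 0% of 8 astrocyte markers. The windows of Mal and Cldn11 held neither word. These are matches of letters within short windows and say nothing of binding in these mice.

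In GRCm38 (GENCODE M21), Myrf (10208272 to 10240748, minus strand) and Opalin (41061710 to 41077113, minus strand) share chromosome 19. Each of the others lies on a chromosome of its own: Mbp on 18 (82475146 to 82585637), Mog on 17 (37010743 to 37023398), Mag on 7 (30899176 to 30914873) and Mobp on 9 (120149707 to 120181484). Cnp lies on 11 (100574904 to 100591729), Mal on 2 (127633226 to 127656695) and Cldn11 on 3 (31149920 to 31164324).

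The myelin genes spanned a wide range of levels, in FPKM, the number of fragments scaled to transcript length and to the size of the library. Mbp, the myelin basic protein that holds the inner faces of the membrane together, was far above the rest at 689 ± 62.6 FPKM (SD over all 6 libraries). Mal, a small membrane protein that moves lipids and proteins into the sheath, followed at 123 ± 18.1 FPKM. Cnp, an enzyme of the layers that stay uncompacted, had 116 ± 9.84 FPKM. Mal and Cnp could not be ordered, since each was the higher in 3 of the 6 libraries.

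Mobp, a small basic protein of compact myelin, had 63.1 ± 5.18 FPKM, and Cldn11, the claudin of the tight junctions between wraps, had 56.8 ± 5.79 FPKM. Their ranges over the libraries overlapped, although Mobp was the higher in each of the 6. Mag, an adhesion protein of the innermost wrap that faces the axon, had 44.2 ± 2.90 FPKM, and Mog, an immunoglobulin-like protein of the outermost surface, had 36.4 ± 5.44 FPKM, with Mag the higher in 4 of 6 libraries. Opalin, a transmembrane glycoprotein of oligodendrocytes, had 22.3 ± 4.08 FPKM. Myrf stood last at 2.98 ± 1.63 FPKM, with no library near the level of any structural gene. For comparison of levels per length, Pdgfra, the growth factor receptor that marks oligodendrocyte precursors, had 11.8 ± 1.14 FPKM in the vehicle mice and 11.5 ± 0.542 FPKM in the resveratrol mice (SD, n = 3 each), below every structural myelin gene in every library. Of the markers of Schwann cells, the myelinating cells of peripheral nerves, only Pmp22 and Egr2 were analysed here.

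**Figure D1:**
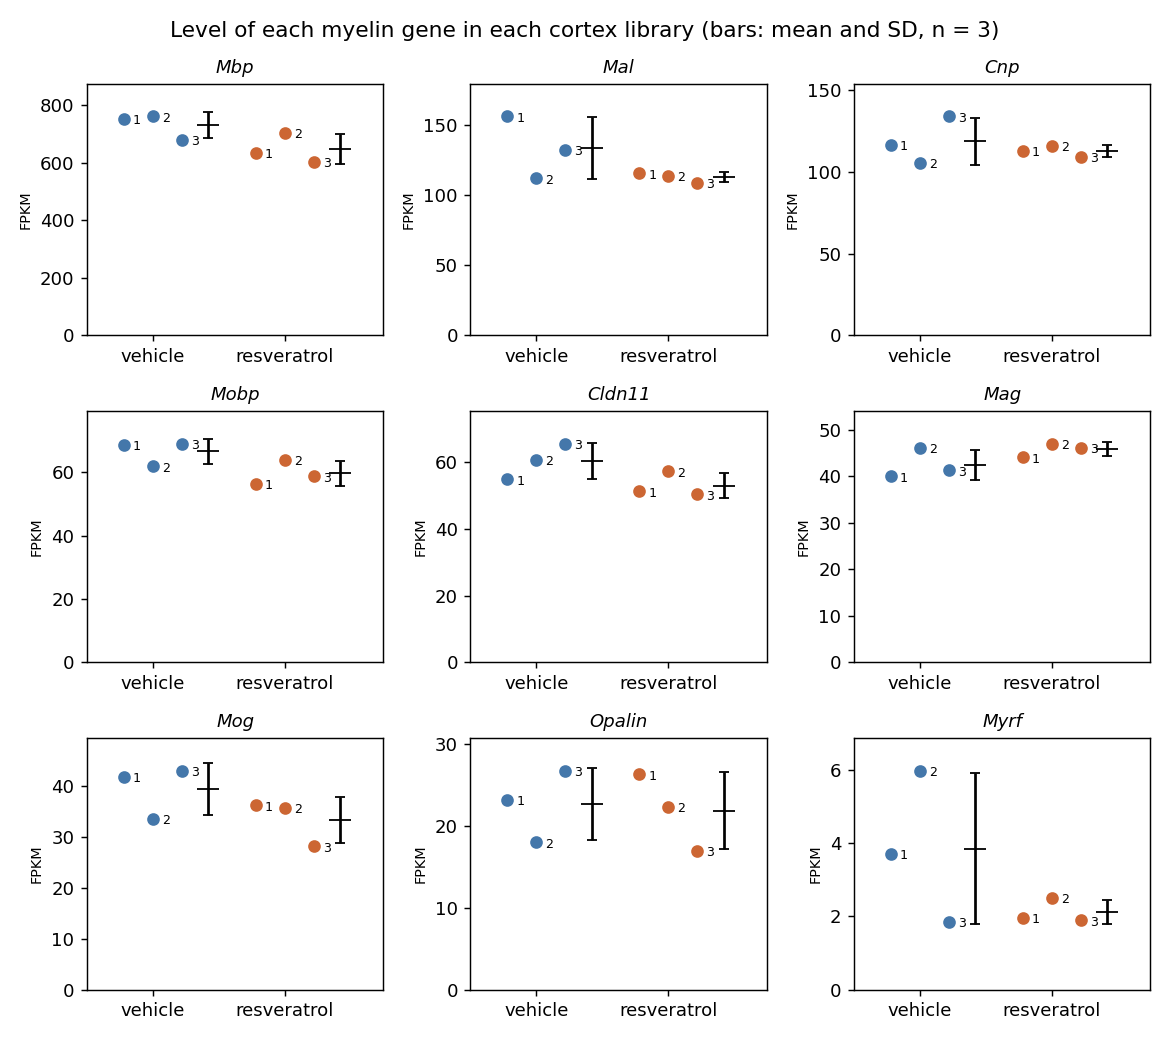
FPKM (vertical axes, each from 0) of each of the 9 myelin genes in the 3 vehicle (blue) and 3 resveratrol (orange) libraries, with the replicate number beside each point and the group mean and SD as bars. The 2 groups overlap for every gene, and the Myrf panel shows vehicle 1 and vehicle 2 above the other 4 libraries.

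Myrf varied more from mouse to mouse than nearly all genes, and the 8 structural genes varied less than Myrf. The highest library exceeded the lowest by 1.18 times for Mag, the steadiest member, and by 1.57 times for Opalin, the least steady of the structural genes. For Myrf the same ratio was 3.22. Ranked among all 13574 tested genes by the SD of log2(FPKM + 0.5) over the 6 libraries, the structural genes lay between the 13.3 percentile (Mag) and the 83.1 percentile (Opalin), and Myrf lay at the 99.0 percentile.

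Myrf was read at 3.71, 5.98 and 1.86 FPKM in vehicle 1, 2 and 3, and at 1.96, 2.51 and 1.89 FPKM in resveratrol 1, 2 and 3. Vehicle 1 and vehicle 2 were high, and vehicle 3 was the lowest of all 6 libraries, below each of the resveratrol libraries. The group means were 3.85 ± 2.07 FPKM in the vehicle mice and 2.12 ± 0.338 FPKM in the resveratrol mice (SD, n = 3 each). On the log2(FPKM + 0.5) scale, which understates the change of low genes, the difference of resveratrol from vehicle was -0.62 ± 0.31 (SE), with a 95% interval from -1.31 to 0.07 and a limma adjusted p of 0.987 over all tested genes. An exact permutation test of Myrf alone, two-sided, gave p = 0.4, where 3 against 3 cannot go below 0.1. With 0.1 added to each FPKM in place of 0.5 the limma difference was -0.69. In the authors' deposited table Myrf is lower by a log2 fold change of -0.86 with p = 5e-05 and q = 0.0115, the only one of the 9 genes with q under 0.05, in a table where 0.744% of genes have such a q. The authors' fold change compares log2 levels of whole groups (1.94 in vehicle, 1.08 in resveratrol), while limma averages the log2 values of single libraries. Myrf is thus called in the authors' deposited table and not in limma.

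The Myrf difference rested on 2 mice, and more on vehicle 2 than on vehicle 1. Without vehicle 1 it was -0.58, and without vehicle 2 it was -0.27 (limma adjusted p = 0.9999 for each). Without vehicle 3 it was -1.002 (limma adjusted p = 0.0882). With vehicle 1 and vehicle 2 left out together, a choice made after seeing the data, it turned to 0.15. Vehicle 1 and vehicle 2 were the 2 highest libraries for 14.6% of all tested genes. Transcript length moved with these libraries: across genes, the deviation from the mean correlated with length at a Spearman value of 0.310 in vehicle 1, 0.474 in vehicle 2 and -0.502 in vehicle 3, over 13047 genes, which are not independent of each other. Myrf has a long transcript (5674 bases, longer than 82.5% of genes). The 1172 genes within 10% of its length had median deviations of 0.03, 0.08 and -0.10 in vehicle 1, 2 and 3, against 0.38, 1.004 and -0.46 for Myrf. After a correction for length and GC content the Myrf difference was -0.59 ± 0.24 (SE).

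Vehicle 3 was most often the highest library of a structural gene and resveratrol 3 most often the lowest, and Myrf was low in both. Mbp had 751, 760 and 680 FPKM in vehicle 1, 2 and 3 respectively, and the resveratrol libraries 1, 2 and 3 had 634, 704 and 603 FPKM. It was the only structural gene for which vehicle 1 and vehicle 2 were the 2 highest libraries, and the groups overlapped through resveratrol 2. For 5 of the 8 structural genes vehicle 3, the library with the least Myrf, was the highest library. For 5 of the 8 resveratrol 3 was the lowest, although its Myrf level (1.89 FPKM) was close to that of vehicle 3 (1.86 FPKM). The mean deviation of the 8 genes was 0.09, -0.04 and 0.14 in vehicle 1, 2 and 3 respectively, and the resveratrol libraries 1, 2 and 3 had -0.03, 0.01 and -0.17, on the log2 scale.

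**Figure D2:**
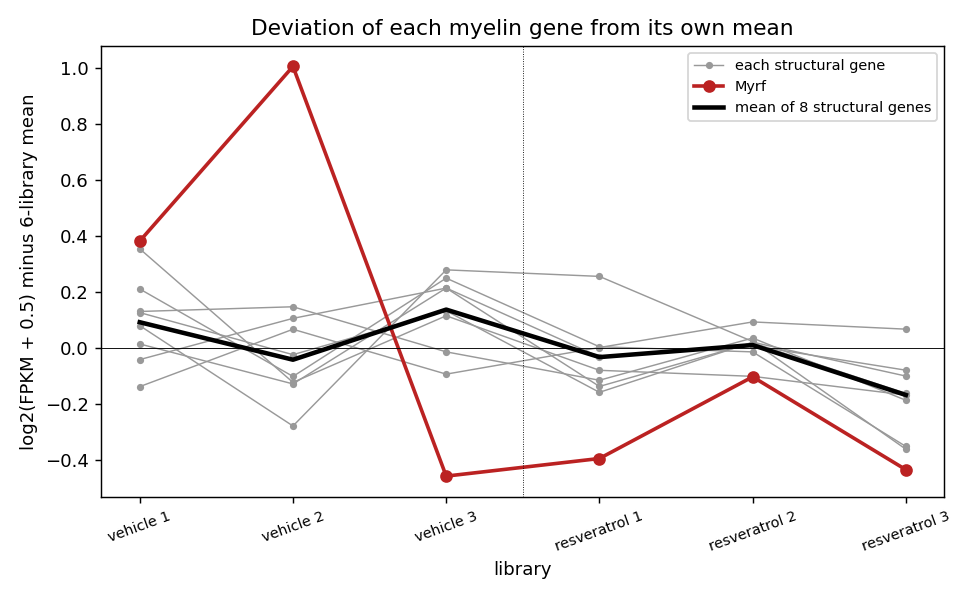
Deviation of log2(FPKM + 0.5) from the gene's own mean over the 6 libraries (vertical axis) by library (horizontal axis), for each of the 8 structural genes (grey), their mean (black) and Myrf (red). Myrf stands at 0.38 and 1.004 in vehicle 1 and 2 and below 0 in the other 4 libraries, where the mean of the structural genes stays between -0.17 and 0.14.

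No myelin gene passed the test between groups. In limma 0 of the 9 genes had an adjusted p under 0.05, against 0.00737% of all tested genes, which is 1 gene. At an unadjusted p under 0.05 the count was also 0 of 9, against 2.42% of all genes. Of the 9 genes 8 lay lower in resveratrol, against 43.9% of all genes, and the median log2 fold change was -0.18 for the 9 and 0.02 for all tested genes. In 0 of the 9 did the groups fail to overlap, against 6.28% of all genes. The 9 genes come from the same cells and the same 6 mice, so their shared sign is not 9 separate observations.

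Among the proteins of compact myelin, Mbp had 730 ± 44.0 FPKM in the vehicle mice and 647 ± 51.4 FPKM in the resveratrol mice, a log2 fold change of -0.18 ± 0.13 (SE, n = 3 each; limma adjusted p = 0.987). Mobp was read at 68.8, 61.9 and 69.1 FPKM in the vehicle libraries and at 56.4, 63.9 and 58.7 FPKM in the resveratrol libraries, and its difference was -0.16 ± 0.10. Vehicle 2 and resveratrol 2 made the groups of Mobp overlap. Mal had 156, 112 and 132 FPKM in the vehicle mice and 115, 114 and 108 FPKM in the resveratrol mice, with a difference of -0.23 ± 0.13 that was -0.11 without vehicle 1 and -0.35 without vehicle 2. The resveratrol mice lay close together for Mal, and the wide spread was in the vehicle mice, where vehicle 2 fell inside the resveratrol range. Cldn11 had 54.9, 60.9 and 65.7 FPKM in the vehicle mice and 51.4, 57.3 and 50.5 FPKM in the resveratrol mice, with a difference of -0.19 ± 0.11, and resveratrol 2 lay above vehicle 1.

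Among the proteins of the outer surface and the uncompacted layers, Mog had 41.7, 33.5 and 42.9 FPKM in the vehicle mice and 36.1, 35.7 and 28.1 FPKM in the resveratrol mice, a difference of -0.24 ± 0.14 that was -0.12 without resveratrol 3. Vehicle 2 lay below resveratrol 1 and 2 for Mog, and resveratrol 3 was the lowest. Cnp had 116, 105 and 134 FPKM in the vehicle mice and 113, 116 and 109 FPKM in the resveratrol mice, a difference of -0.07 ± 0.12 that was -0.15 without vehicle 2, -0.05 without resveratrol 3 and 0.023 without vehicle 3. The annotation places Dnajc7 on the opposite strand over part of Cnp, and whether the authors' counting used strand is not given in the sources used here. Opalin had 23.2, 18.0 and 26.7 FPKM in the vehicle mice and 26.3, 22.3 and 17.0 FPKM in the resveratrol mice, a difference of -0.05 ± 0.18 that ran from -0.21 without vehicle 2 and -0.20 without resveratrol 1 to 0.07 without vehicle 3 and 0.11 without resveratrol 3. For Opalin 1 library of each group was high and 1 was low, and the groups covered nearly the same range.

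Mag, the adhesion protein at the axon face, was the only member with a positive difference. Its levels were 40.0, 46.2 and 41.3 FPKM in the vehicle mice and 44.1, 47.1 and 46.2 FPKM in the resveratrol mice, a log2 fold change of 0.11 ± 0.10 (SE, n = 3 each; limma adjusted p = 0.987). Vehicle 2 lay above resveratrol 1, so the groups overlapped. The difference was 0.07 without vehicle 1 and 0.17 without vehicle 2. The 95% interval for Mag ran from -0.12 to 0.33, and those of Mbp (-0.48 to 0.12), Mog (-0.55 to 0.07) and Cnp (-0.33 to 0.19) show how large a difference these 6 mice leave possible. The 4 genes with a Myrf word in the printed windows had differences of 0.11 (Mag), -0.07 (Cnp), -0.24 (Mog) and -0.05 (Opalin), and the 3 genes without one had -0.16 (Mobp), -0.23 (Mal) and -0.19 (Cldn11). These values are set side by side without a test.

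**Figure D3:**
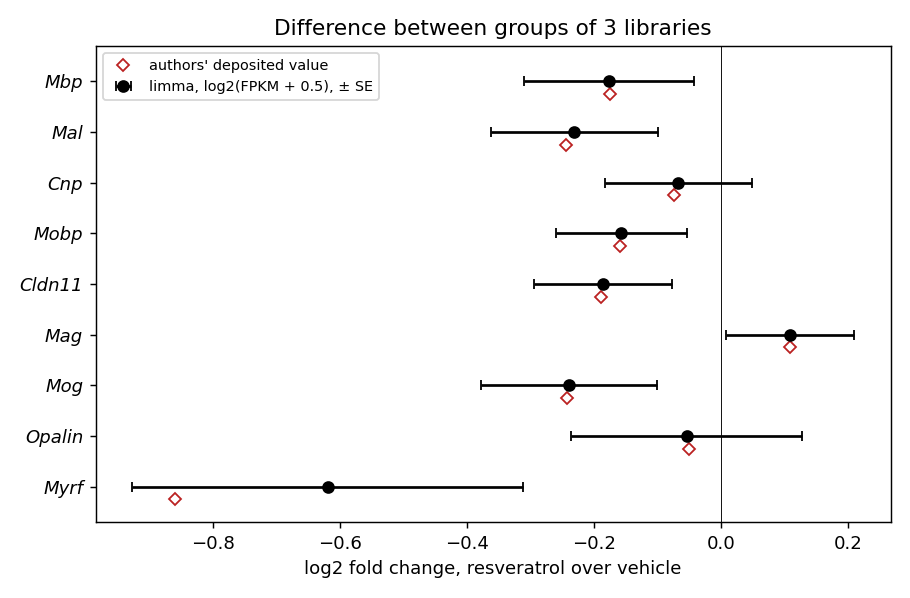
Log2 fold change of resveratrol over vehicle (horizontal axis) for each of the 9 myelin genes, as fitted with limma on log2(FPKM + 0.5) with its SE (black, n = 3 each) and as given in the authors' deposited table (open red diamonds). The values of the structural genes lie between -0.24 and 0.11, and Myrf lies at -0.62, or -0.86 in the authors' deposited table.

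Added together, the 9 genes gave 1256, 1204 and 1193 FPKM in vehicle 1, 2 and 3 respectively, and the resveratrol libraries 1, 2 and 3 had 1078, 1162 and 1023 FPKM. The vehicle sums all lay above the resveratrol sums, and Mbp alone held between 57.0% and 63.1% of each sum. As a share of all listed FPKM the groups overlapped, at 0.347%, 0.343% and 0.304% in vehicle and 0.274%, 0.305% and 0.258% in resveratrol. No p is given for a sum over chosen genes.

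Dividing each structural gene by Myrf within a library sets the sheath against its regulator and removes the overall scaling of the library. It does not remove a shift that depends on transcript length. The structural transcripts were 1704 (Mog) to 4797 (Mbp) bases long, against 5674 for Myrf. After the length and GC correction the median of the 8 log2 ratio differences was 0.41. The part of length in the ratios of single libraries was not tested. The ratio of Mbp to Myrf was 203, 127 and 366 in vehicle 1, 2 and 3 respectively, and the resveratrol libraries 1, 2 and 3 had 323, 280 and 319. Vehicle 3 had the highest ratio and vehicle 2 the lowest, with all resveratrol libraries in between. The group means were 232 ± 122 in the vehicle mice and 307 ± 23.6 in the resveratrol mice (SD, n = 3 each), a difference of 0.44 ± 0.62 (SE) on the log2 scale (limma adjusted p = 0.502 over 13573 genes). The ratio of Cnp to Myrf was 31.4, 17.6 and 72.1 in the vehicle mice and 57.6, 46.2 and 57.7 in the resveratrol mice, a log2 difference of 0.55 ± 0.56. The ratio of Mag to Myrf had the largest log2 difference, 0.73 ± 0.52 (limma adjusted p = 0.364), with 10.8, 7.73 and 22.3 in the vehicle mice and 22.5, 18.8 and 24.4 in the resveratrol mice. The groups overlapped for all 8 ratios. Because every ratio holds the same Myrf values, limma took these SEs from a variance that genes of like level share. With no intensity trend in that variance, the SE was 0.466 for each of the 8 ratios. The SEs and p-values of the ratios therefore do not measure the spread of each ratio between mice.

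All 8 ratios were higher in resveratrol, but so were 99.6% of the ratios of all genes to Myrf, since they share its values. In limma 0 of the 8 ratios passed the adjusted threshold, against 0.0368% of all genes, and 0 of the 8 had an unadjusted p under 0.05, against 2.28%. The 8 log2 differences lay between 0.38 (Mog) and 0.73 (Mag). Without vehicle 3 the ratios of 7 of the 8 genes passed, together with 90.3% of all genes. Without vehicle 2 the median of the 8 log2 differences fell from 0.45 to 0.08, that of Mbp from 0.44 to 0.13, and those of Mog and Mal lay below 0. With vehicle 1 and vehicle 2 left out together, a choice made after seeing the data, only the ratio of Mag to Myrf stayed above 0.

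**Figure D4:**
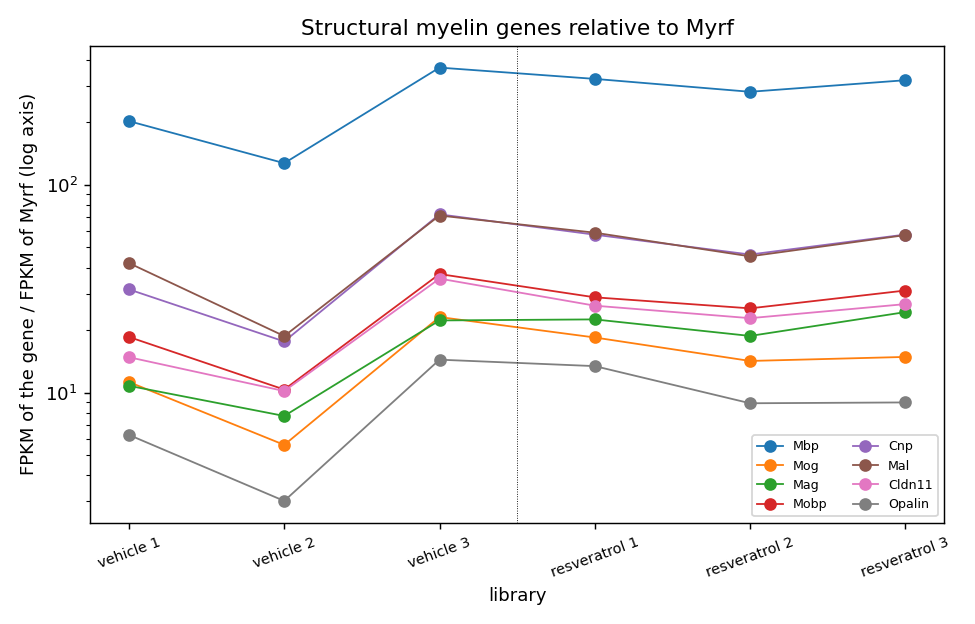
FPKM of each structural myelin gene divided by the FPKM of Myrf in the same library (vertical axis, logarithmic) by library (horizontal axis), with 1 line per gene. All 8 lines dip in vehicle 2, as from 203 to 127 for Mbp, and the resveratrol libraries lie between vehicle 2 and the highest vehicle value, except for Mag in resveratrol 1 and resveratrol 3.

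Other genes of myelin and of the oligodendrocyte lineage showed no called difference either. In a list of 22 further genes of the myelin membrane and its junctions, 0 passed in limma, 17 were lower and 5 higher, and the median log2 fold change was -0.06. The smallest p in the list belonged to Tmem88b (-0.36 ± 0.17, SE), Cd9 (0.33 ± 0.17), a tetraspanin, and Tspan2 (-0.27 ± 0.14), a tetraspanin of oligodendrocytes. In 0 of the 22 did the groups stay apart, against 6.28% of all tested genes.

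Of 20 other genes of mature oligodendrocytes, 12 were higher and 8 lower, with a median of 0.04. Enpp2, which makes the lipid signal lysophosphatidic acid, differed by 0.29 ± 0.16 and Ptgds, a prostaglandin synthase, by 0.18 ± 0.17. Both genes are also made by choroid plexus or meninges, and 7 of 7 tested choroid plexus genes were higher in resveratrol, with a summed level of 17.3 to 114 FPKM in the vehicle mice and 49.5 to 459 FPKM in the resveratrol mice. A single gene held most of that sum in each of the 6 libraries. The part of those cells in the Enpp2 and Ptgds values was not tested. The choline transporter Slc44a1 had 26.4, 24.2 and 26.2 FPKM in the vehicle mice and 22.7, 24.1 and 22.1 FPKM in the resveratrol mice (-0.15 ± 0.10), and its groups did not overlap, as for 1 of these 20 genes and 6.28% of all tested genes. Of 14 genes for the sphingolipids of myelin, 7 were higher and 7 lower, with a median of 0.02. The groups did not overlap for 2 of the 14, Sptlc1 (0.16 ± 0.11) and Sptlc2 (0.16 ± 0.11), subunits of the enzyme that begins sphingolipid synthesis, against 6.28% of all tested genes. Fa2h, the fatty acid hydroxylase, had 5.26, 9.15 and 5.22 FPKM in the vehicle mice and 4.55, 5.23 and 5.11 FPKM in the resveratrol mice (-0.32 ± 0.20).

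The factors that work beside Myrf gave small values. Sox10, its partner, had 7.37, 7.23 and 7.03 FPKM in the vehicle mice and 6.51, 7.77 and 8.60 FPKM in the resveratrol mice, a difference of 0.07 ± 0.13 (SE). Sox10 was thus level across the vehicle mice, where Myrf ranged from 1.86 to 5.98 FPKM. Olig2, a lineage factor, differed by -0.14 ± 0.16, and Olig1, a related lineage factor, by -0.20 ± 0.13. Tmem98, a membrane protein that binds Myrf and holds back its cleavage, differed by 0.17 ± 0.15, and Id4, an inhibitor of differentiation, by -0.21 ± 0.17. Of 17 tested lineage regulators 7 were higher and 10 lower, with a median of -0.04, and 0 passed. Vehicle 1 and vehicle 2 were the 2 highest libraries for 6 of these 17 genes: Tcf7l2, Zfp488, Chd7, Id4, Sox6 and Zfp536. That is 35.3%, against 14.6% of all tested genes. The share was 42.9% of 7 ependymal, 40% of 5 meningeal fibroblast and 33.3% of 9 neuron markers. It was 9.09% of the 22 further genes of the myelin membrane and its junctions and 0% of the 20 other genes of mature oligodendrocytes. Of the 14 genes for myelin sphingolipids it was 21.4%, and of the 9 members 22.2% (Mbp and Myrf). None of these shares was matched for transcript length.

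As in part of the lists just given, the same library pattern was seen among markers of precursors and newly formed oligodendrocytes. Of 12 such genes 7 (Pdgfra, Cspg4, Gpr17, Neu4, Vcan, Ptprz1 and Itpr2) had vehicle 1 and vehicle 2 as their 2 highest libraries, which is 58.3% of the list against 14.6% of all tested genes, and 11 of the 12 were lower in resveratrol with a median of -0.13. These shares were not matched for transcript length, which moved with the vehicle libraries, and the part of length in them was not tested. The summed level of the list was 87.4 to 136 FPKM in the vehicle mice and 98.5 to 102 FPKM in the resveratrol mice. None of its defining markers was at 0, and the part of precursors in the Myrf values was not tested. Ptprz1, a phosphatase of precursors and astrocytes, had 39.2, 42.2 and 18.6 FPKM in the vehicle mice and 23.8, 23.4 and 21.8 FPKM in the resveratrol mice (-0.44 ± 0.26), with vehicle 1 and 2 high and vehicle 3 lowest, as for Myrf. Enpp6, a marker of newly formed oligodendrocytes, had 4.13, 3.85 and 4.09 FPKM in the vehicle mice and 3.26, 3.65 and 3.10 FPKM in the resveratrol mice (-0.24 ± 0.13). Its groups did not overlap, as for 1 of these 12 genes and 6.28% of all tested genes. Vcan, a matrix proteoglycan of precursors, differed by -0.21 ± 0.18. None of the 12 passed in limma.

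On the axon side, the receptors and partners of myelin were split, with 6 of 10 tested genes higher and 4 lower and a median of 0.05. Erbb3, a neuregulin receptor, differed by -0.27 ± 0.19, Tnfrsf19, a partner of the Nogo receptor, by 0.12 ± 0.13, and Nrg1, the neuregulin ligand, by 0.13 ± 0.14. None passed in limma. Ngfr and Pirb of this list were not analysed here.

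Libraries also differed in markers of neighbouring tissue. All 13 genes of striatal neurons were lower in resveratrol, with a summed level of 411 to 1010 FPKM in the vehicle mice and 351 to 724 FPKM in the resveratrol mice, and vehicle 1 was their highest library with a mean deviation of 0.84. Of 7 tested ependymal genes 6 were lower, with sums of 15.1 to 16.3 FPKM in the vehicle mice and 11.7 to 12.1 FPKM in the resveratrol mice. The groups did not overlap for 3 of these 7 genes and for 0 of the 13 striatal genes, against 6.28% of all tested genes. Neuron, astrocyte, microglia and endothelial markers had medians of 0.04, -0.03, -0.03 and -0.05. Deep layer, upper layer and meningeal fibroblast markers had medians of -0.12, -0.01 and -0.14, and the 2 Schwann cell genes one of 0.44. None of these lists held a called gene. The part of striatal and ventricular tissue in the myelin values was not tested.

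By the shape of their profile over the 6 libraries, the tested genes nearest to the mean of the 8 structural genes were Ypel5, Gas2, Cetn2, Carns1, 2610524H06Rik, Vps35, Isca2 and 1700086L19Rik, at root mean square differences between 0.0208 and 0.0383 on the log2 scale. Carns1, carnosine synthase, had 1.60, 1.45 and 1.74 FPKM in the vehicle mice and 1.48, 1.46 and 1.27 FPKM in the resveratrol mice. The structural profile was nearly flat, with an SD of 0.108 over the libraries, and 10997 genes were compared with it. Nearest to Myrf, among 139 genes compared, were Atp1b2, Zmiz1, Rnf165, Sox9 and Map1a, at differences between 0.112 and 0.131. Sox9, a transcription factor of astrocytes and early glia, had 3.53, 6.33 and 1.87 FPKM in the vehicle mice and 2.27, 2.11 and 2.07 FPKM in the resveratrol mice. Atp1b2, a subunit of the sodium pump in glia, had 32.0, 54.8 and 15.6 FPKM in the vehicle mice and 17.5, 20.4 and 18.6 FPKM in the resveratrol mice. Like Myrf, both had vehicle 2 far above vehicle 1 and vehicle 3 lowest.

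**Figure D5:**
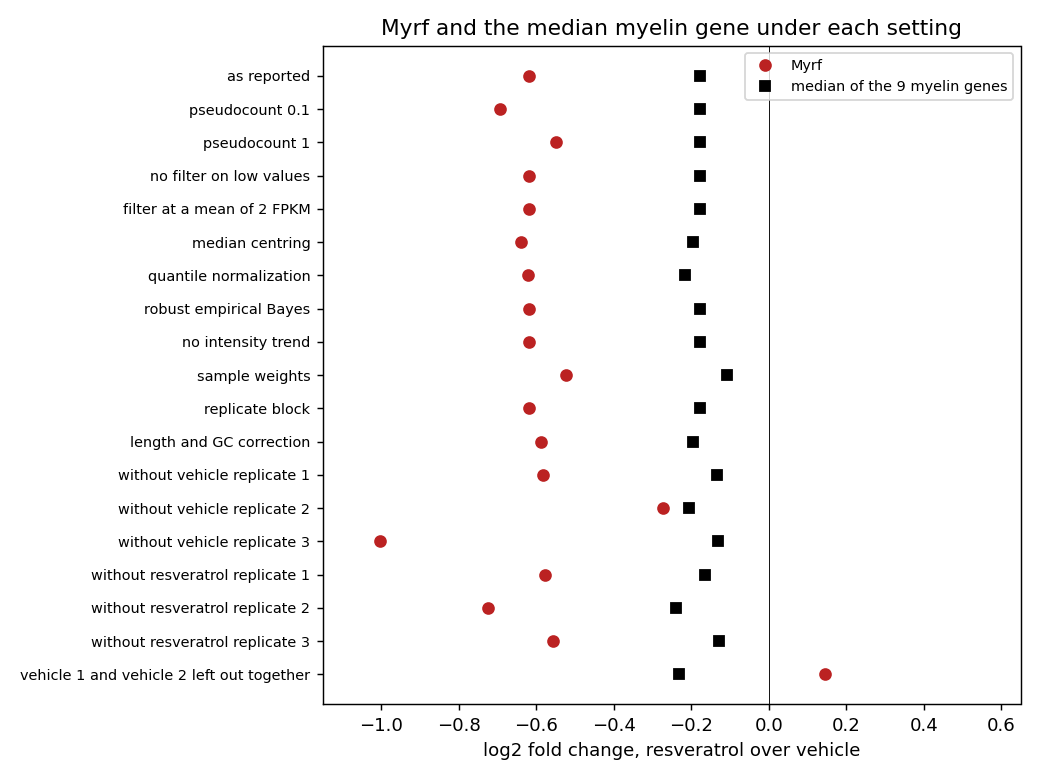
Log2 fold change of resveratrol over vehicle (horizontal axis) of Myrf (red circles) and of the median myelin gene (black squares) under each processing setting (vertical axis). The median stays between -0.24 and -0.11, while Myrf ranges from -1.002 without vehicle 3 to 0.15 with vehicle 1 and vehicle 2 left out together.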

How the data were processed

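Cortical RNA was depleted of ribosomal RNA and sequenced as stranded libraries, per the labels' protocols. Each mouse has 1 column of FPKM, a unit computed by the authors, per the file headers. Their comparison columns, also deposited, give log2 values of the groups, a log2 fold change and its p-value and q-value. STAR, Cufflinks, Cuffdiff and GRCm38 are named in the submitters' processing notes with no role or version. The deposited loci overlap the GRCm38 gene in 0 of the 9 genes and were not used, and printed coordinates come from GENCODE and RefSeq.

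Log2(FPKM + 0.5) was compared with limma 3.58.1 under R 4.3.3 for genes averaging 0.5 FPKM or more, with a prior variance that follows intensity, two-sided, with Benjamini-Hochberg adjustment over 13574 genes and a threshold of 0.05. The 2 rows with a failed value were left out. Ratios to Myrf were fitted in the same way over 13573 genes, although these ratios are not independent because they share the Myrf values. Their SEs and p-values rest on a variance shared between genes, not on the spread of each ratio. The labels give 3 mice per group, and the 6 libraries were treated as separate animals. Depth is unknown: at best 30.6% to 33.6% of low values lay within 0.1 of a whole multiple of a step, where 1 step gives 20% by chance, so no counting interval is given. Of 50-base words, at most 0.614% in any member occur in other genes (GENCODE M21). Named genes are the 9 members, Sox10, Olig2, Pdgfra, up to 3 genes of smallest p per list that is described by gene, and the nearest profiles; the other genes with vehicle 1 and 2 highest were chosen after their values were seen. The members and lists were chosen with earlier results of these data known. Some items are not reported here. The scripts were tested on simulated data. Alternatives were other pseudocounts, filters, normalizations, empirical Bayes settings, sample weights, a replicate block, a length and GC correction and each library left out.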

Additional observations from a re-analysis of the deposited data

How the results depend on the processing

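Over 10 settings that kept all 6 libraries at equal weight, 0 of the 9 genes and 0 of the 8 ratios passed, and no difference changed its sign. Sample weights gave 4 called genes (Mog, Mag, Mal and Myrf) and 8 called ratios. That fit also called 36.3% of all genes and 96.6% of all ratios, and its weights ran from 0.227 (vehicle 3) to 9.20 (resveratrol 2) after the estimation stopped early. Cldn11 turned to 0.023 in it. With 1 library left out the count of called genes was 0, and that of called ratios was 0 to 7. Over these fits Cnp ranged from -0.15 to 0.023, Opalin from -0.21 to 0.11, the ratio of Mog to Myrf from -0.077 to 0.83 and that of Mal to Myrf from -0.078 to 0.77. Without vehicle 2 the ratios of Mog and Mal lay below 0. With vehicle 1 and vehicle 2 left out together (chosen after seeing the data), which leaves 1 vehicle library assumed to vary like the resveratrol libraries, Myrf turned to 0.15. The log2 ratio differences to Myrf were then -0.22 (Mbp), -0.52 (Mog), -0.36 (Mobp), -0.39 (Cnp), -0.38 (Mal), -0.45 (Cldn11) and -0.45 (Opalin). The cause of these changes was not tested. With the replicate number as a block Myrf was -0.62 ± 0.22 (limma adjusted p = 0.936), and the counts of called genes and ratios stayed at 0. Same-numbered libraries correlated at 0.0383, 0.148 and 0.184 in their deviations from the group mean, so the numbers were not taken to pair the mice. The length and GC correction left out the genes with no annotated transcript.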
